A study of Homo sapiens with 18 samples.

Results

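The libraries labelled SRF-FOXO1 were compared with those labelled pMSCV across every gene that passed a filter on low counts. The members were chosen by their labels, with no measured value in the rule, and are 6 of the 18 libraries of the series, 3 in each group. All were made from MSC-hTERT, a human mesenchymal stem cell line immortalized with telomerase and grown in a serum-containing medium with FGF-2, ascorbic acid and heparin. The pMSCV cells carry a retroviral vector, taken here as the empty control, and the SRF-FOXO1 cells carry a fusion of the transcription factor genes SRF and FOXO1. The remaining groups carry SRF itself or the fusions SRF-ICA1L, SRF-PDGFRB and SRF-RELA, with 3 libraries each. Their levels are given only where the groups are named. All 18 libraries entered the filter, the scaling and the estimate of spread behind each p-value, except where a fit of fewer is stated. No clone, time after gene transfer or separate culture is recorded for the libraries, so the p-values measure the spread between these libraries, which may be technical. In bulk RNA, a change in the number of cells that make a transcript and a change in the amount per cell cannot be told apart.

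SRF (serum response factor) binds a short DNA element, the CArG box. With cofactors of the myocardin and MRTF family it drives genes of the actin cytoskeleton and of muscle contraction, and with ternary complex factors such as ELK1 it drives immediate early genes. MRTF proteins are held by free actin monomers, so the state of actin feeds back on the genes that encode it. FOXO1 is a forkhead factor restrained by insulin and AKT signalling. It is known for genes of cell cycle arrest, stress defence and muscle atrophy, and its end distal to the forkhead domain holds a strong activation domain. Mesenchymal stem cells are stromal cells that can form bone, fat and cartilage and can take on features of smooth muscle.

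The 6 libraries held 21618533 to 29806771 counts, and FN1 (fibronectin) was the most abundant gene in each. The label was checked against surface markers of mesenchymal stem cells. Of 14 such markers 13 passed the filter, and their summed level was 4860 to 5950 CPM (counts scaled to the library total) in pMSCV and 5040 to 5410 CPM in SRF-FOXO1. The sum mostly reflects its most abundant members. ITGB1 alone was at 2340 to 3240 CPM in pMSCV and 2500 to 2820 CPM in SRF-FOXO1. NGFR, the marker that did not pass, was at no more than 0.086 CPM. Leukocyte markers summed to 0.637 to 0.866 CPM in pMSCV and 0.601 to 1.01 CPM in SRF-FOXO1, with CD3E at 0 in all 6. FOS, an immediate early gene, separated the libraries by replicate number. In those numbered 2, over all 6 groups, it was at 12.1 to 34.4 CPM, and it was at 381 to 1110 CPM in the libraries numbered 1 and 3. Counts of calls are therefore given without and with the replicate number as a block, a term in the model that compares libraries of the same number. For single genes, calls made only with the block are named as such.

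Without the block, 172 of 18544 genes were called at an edgeR adjusted p-value under 0.05, which is 0.928% of the genes tested. Of these, 162 were higher in SRF-FOXO1 (0.874%) and 10 were lower (0.0539%). With the block, 1304 genes were called (7.03%), 862 higher (4.65%) and 442 lower (2.38%), and each of the 172 was among them. The median log2 change, the log2 of the fold between groups as fitted, of all tested genes was 0.013 without and 0.0089 with the block. With only the libraries of the 2 groups in the fit, 5 genes were called without and 318 with the block. Of the 172 calls, 136 differed by 1 or more on the log2 scale. The number of calls moved strongly with single libraries. Without the block it was 3 when pMSCV replicate 1 was left out, 12 without pMSCV replicate 3, 37 without SRF-FOXO1 replicate 2, 46 without pMSCV replicate 2 and 435 without SRF-FOXO1 replicate 1. With the block it ran from 428 without SRF-FOXO1 replicate 2 to 1341 without SRF-FOXO1 replicate 1. It was 519 without pMSCV replicate 3 and 730 without pMSCV replicate 1. Of the 162 higher calls, 142 to 161 were also called with the block when any 1 of the 6 libraries was left out.

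**Figure D1:**
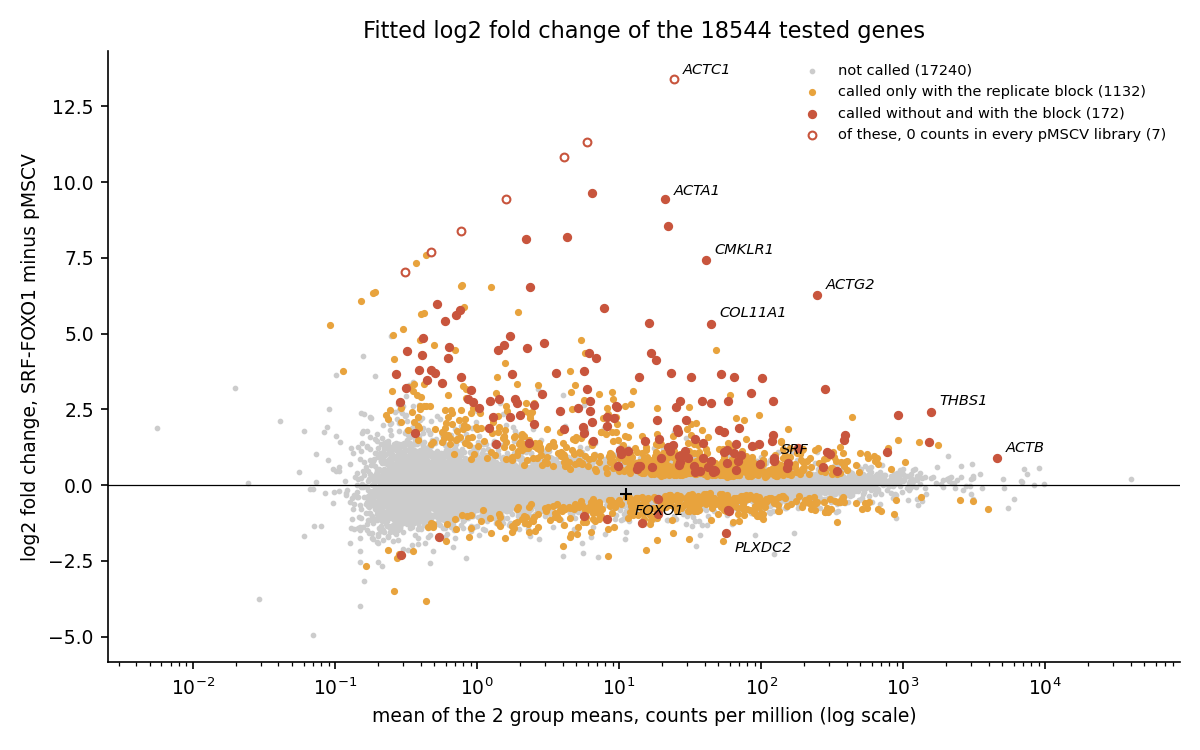
Fitted log2 change of SRF-FOXO1 over pMSCV (vertical axis) against the mean of both group means in CPM (horizontal axis, log scale), 1 point per tested gene. The 172 genes called without the block lie mostly above 0, and open symbols mark those with 0 counts in every pMSCV library, whose fitted values are no measured folds.

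The size of the response also differed between replicate numbers. For the 162 higher genes the median log2 difference between same-numbered libraries was 1.5 for number 1, 2.3 for number 2 and 2.0 for number 3. The difference was smallest in number 1 for 96 of them and largest in number 2 for 106. For the 10 lower genes these medians were -1.1, -1.2 and -1.0. The response was thus often weakest in the libraries numbered 1 and strongest in those numbered 2.

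The construct genes were examined first, since they check the labels. SRF was at 61.1, 64.4 and 57.3 CPM in pMSCV replicates 1 to 3 and at 151, 211 and 183 CPM in SRF-FOXO1 replicates 1 to 3. The groups did not overlap, and the log2 change was 1.66 (SE 0.23, edgeR adjusted p 0.00511; 0.000611 with the block; 0.0623 without the block and without pMSCV replicate 1). The counts do not separate native from construct reads of SRF, and the SRF libraries stood higher still, at 678 to 1120 CPM. FOXO1 was at 17.5, 10.9 and 9.45 CPM in pMSCV and at 14.4, 7.63 and 7.35 CPM in SRF-FOXO1. It was lower in the fusion library for each of the 3 numbers, by 0.29 to 0.33 on the log2 scale, with a log2 change of -0.30 (SE 0.36, edgeR adjusted p 0.727; 0.283 with the block). Without pMSCV replicate 1 the log2 change was 0.0141 (edgeR adjusted p 0.993). FOXO1 therefore does not check the label, and SRF-FOXO1 below stands for the libraries labelled SRF-FOXO1.

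Actin genes had the largest median change of the gene lists. Actins are the filament proteins of the cytoskeleton and of muscle, and their genes are classical SRF targets. Of the 6 isoform genes, 5 rose without the block and the same number with it, and the median log2 change of the 6 was 4.9, against 0.013 for all tested genes. The isoforms resemble each other closely, so reads could have been assigned to a neighbour of the family by the authors' counting.

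Promoter sequences are shown for 5 of the 6 genes called higher without the block that hold a CArG box, because SRF binds this element. Each line gives 130 bases near the transcript start, from RefSeq on GRCh38.p14, written along the gene's strand with the CArG boxes in capitals. The ACTG2 stretch is chr2:73892878-73893007 on the plus strand, ACTC1 is chr15:34795550-34795679, ACTA1 is chr1:229434095-229434224 and RPE65 is chr1:68449955-68450084, all 3 on the minus strand, and SRF is chr6:43171139-43171268 on the plus strand.
ACTG2: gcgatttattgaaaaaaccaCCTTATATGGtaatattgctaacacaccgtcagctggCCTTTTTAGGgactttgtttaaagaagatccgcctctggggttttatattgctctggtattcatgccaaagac
ACTC1: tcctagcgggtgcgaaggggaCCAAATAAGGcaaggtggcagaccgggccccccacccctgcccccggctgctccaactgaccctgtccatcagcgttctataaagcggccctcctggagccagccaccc
ACTA1: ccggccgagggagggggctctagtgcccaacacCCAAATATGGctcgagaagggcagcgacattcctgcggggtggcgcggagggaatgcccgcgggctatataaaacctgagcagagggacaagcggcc
RPE65: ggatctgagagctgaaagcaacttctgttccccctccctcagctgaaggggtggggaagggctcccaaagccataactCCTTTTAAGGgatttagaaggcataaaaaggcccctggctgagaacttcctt
SRF: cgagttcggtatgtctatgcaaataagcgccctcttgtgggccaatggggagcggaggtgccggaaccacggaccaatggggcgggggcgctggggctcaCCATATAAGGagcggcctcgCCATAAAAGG

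The CArG box was searched by its consensus, on both strands, in RefSeq windows from 250 bases before to 50 bases after each start. It was found for 1.6% of the 27305 genes with a window and for 1.65% of the 12153 tested genes with one. Among genes called higher without the block it was found for 6 of 110 with a window (5.45%), namely ACTA1, ACTC1, ACTG2, GARS1, RPE65 and SRF. SRF is part of the construct, and native and construct reads were not separated, so its call need not reflect its own promoter. It is also counted among the higher genes with the block. Among those called higher with the block it was found for 22 of 638 (3.45%), and among those called lower with the block for 1 of 345 (0.29%). The forkhead motif TGTTTAC, searched on both strands and counted separately, was found for 4.19% of all genes with a window, 3.69% of the tested ones and 5 of the 110 higher genes (4.55%). With the block it was found for 4.86% of the higher and 6.67% of the lower genes. A match describes the letters of a window and not a bound site.

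ACTG2, the enteric smooth muscle actin (chr2:73892314-73919865, GRCh38), was at 1.52, 7.61 and 11.4 CPM in pMSCV and at 396, 590 and 485 CPM in SRF-FOXO1. The lowest fusion library stood far above the highest vector library, and the log2 change was 6.26 (SE 0.89, edgeR adjusted p 0.00625; 0.000136 with the block). ACTC1, the cardiac actin (chr15:34788095-34795726), had 0 counts in each pMSCV library and was at 2.25, 115 and 29.8 CPM in SRF-FOXO1. Against a floor of 3 counts in a pMSCV library, 0.129 CPM, its mean of 49.0 CPM was at least 380-fold higher (edgeR adjusted p 0.031; 0.000181 with the block). ACTA1, the skeletal muscle actin (chr1:229431245-229434098), was at 0.0354, 0 and 0.139 CPM in pMSCV and at 2.85, 110 and 13.3 CPM in SRF-FOXO1. SRF-FOXO1 replicate 2 carried most of both the ACTC1 and the ACTA1 signal, and replicate 1 the least. The log2 change of ACTA1 was 9.45 (SE 1.75, edgeR adjusted p 0.0226; 0.000453 with the block).

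ACTA2, the vascular smooth muscle actin (chr10:88935074-88991339), was at 15.4, 15.2 and 21.5 CPM in pMSCV and at 69.6, 348 and 135 CPM in SRF-FOXO1. Its log2 change was 3.53 (SE 0.61, edgeR adjusted p 0.0187; 0.00209 with the block), again without overlap. The antisense gene ACTA2-AS1 (chr10:88932390-88940820) overlaps it and moved with it, from 0.258 to 0.708 CPM in pMSCV to 1.61 to 4.5 CPM in SRF-FOXO1. The libraries were stranded, but whether strand was used in counting is not given in the sources used here, so the signals of these genes cannot be told apart. ACTB, the ubiquitous cytoplasmic beta actin, rose from 3250, 3440 and 3310 CPM to 5300, 6990 and 5320 CPM, a log2 change of 0.90 (SE 0.17, edgeR adjusted p 0.0218; 0.00545 with the block). ACTG1, the cytoplasmic gamma actin, was at 2670 to 3000 CPM in pMSCV and 3220 to 3380 CPM in SRF-FOXO1 and was not called, with a log2 change of 0.30 (SE 0.11, edgeR adjusted p 0.21; 0.11 with the block). ACTG1 and ACTA2-AS1 are not among those the naming rule gives and were picked with their values in view. Without the block, 0 of the 5 actin calls passed without pMSCV replicate 1, and 1 passed without pMSCV replicate 2, pMSCV replicate 3 or SRF-FOXO1 replicate 2. With the block, all 5 passed whichever of the 6 libraries was left out.

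**Figure D2:**
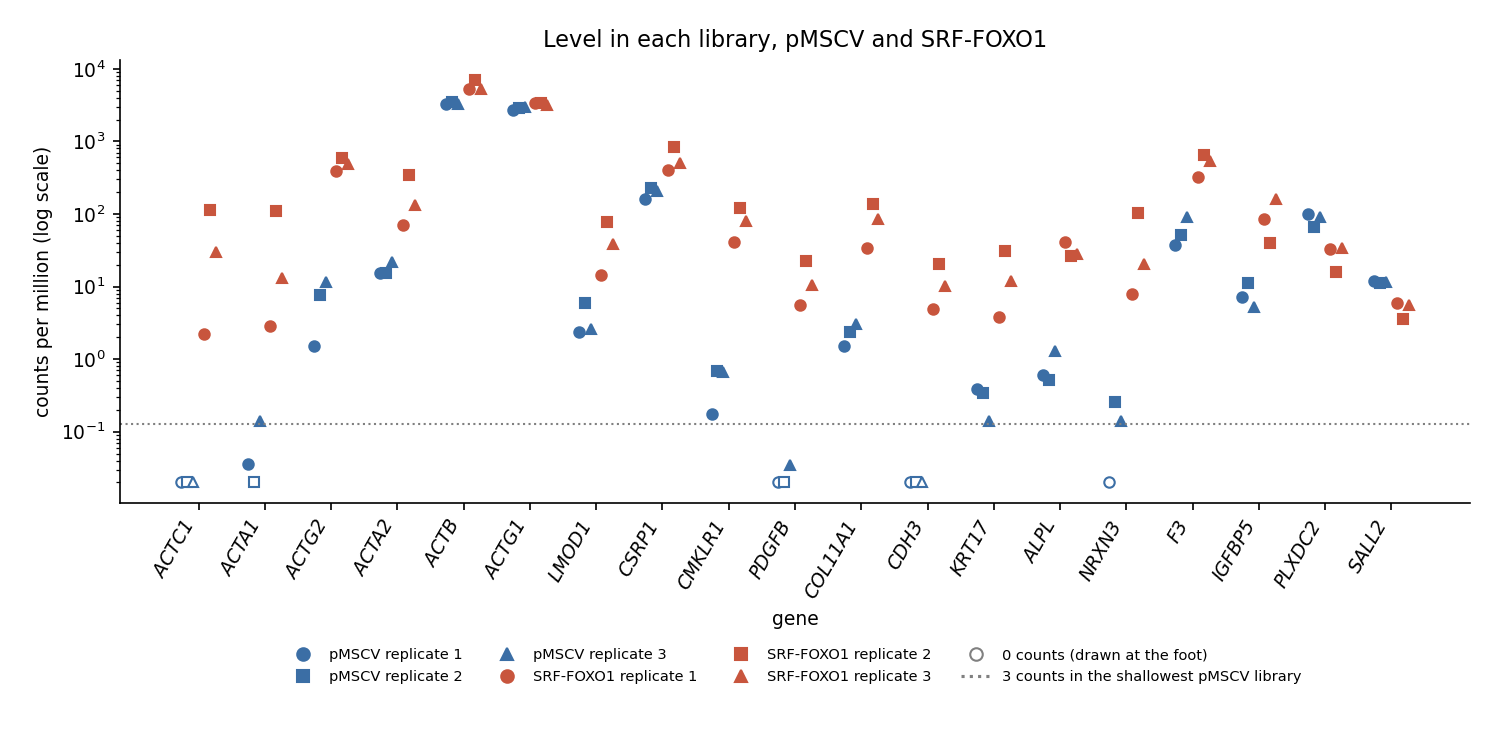
CPM on a log scale (vertical axis) of 19 named genes in each of the 6 libraries, with pMSCV in blue and SRF-FOXO1 in red and a symbol for each replicate number. ACTC1 and CDH3 had 0 counts in all pMSCV libraries, drawn as open symbols at the foot, while PLXDC2 and SALL2 were lower in SRF-FOXO1; levels compare within a gene only.

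Smooth muscle contractile genes rose as well. Of 40 listed genes 34 were tested, 7 rose and 0 fell without the block, 20 rose and 0 fell with it, and the median log2 change was 0.95. ACTA2, described above, is among the 7, so this count is not separate from that of the actins. LMOD1, leiomodin 1, which nucleates actin filaments in smooth muscle, was at 2.34, 5.97 and 2.63 CPM in pMSCV and at 14.4, 76.3 and 38.5 CPM in SRF-FOXO1. The groups did not overlap, and the log2 change was 3.69 (SE 0.66, edgeR adjusted p 0.0212; 6.6e-05 with the block). CSRP1, a LIM protein bound to actin and to SRF complexes, rose from 160, 227 and 206 CPM to 401, 847 and 506 CPM, a log2 change of 1.67 (SE 0.33, edgeR adjusted p 0.0296; 0.000128 with the block). PPP1R12B, a targeting subunit of myosin phosphatase that is not on this list, was at 17.7 to 21.8 CPM in pMSCV. It was at 30.1, 279 and 140 CPM in SRF-FOXO1, so that replicates 2 and 3 made most of its rise (log2 change 3.03, SE 0.63, edgeR adjusted p 0.0393; 0.0127 with the block). SYNPO2, which bundles actin in muscle, rose from 2.05, 3.61 and 3.5 CPM to 4.6, 17.3 and 18.6 CPM (log2 change 2.24, SE 0.48, edgeR adjusted p 0.041; 0.000536 with the block).

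The textbook markers of differentiated smooth muscle were mostly called only with the block. TAGLN, transgelin, was at 72.2, 264 and 146 CPM in pMSCV and at 360, 1180 and 592 CPM in SRF-FOXO1. Its pMSCV level varied over 3-fold, but the difference within each number was nearly constant, 2.30, 2.34 and 2.09 on the log2 scale. The edgeR adjusted p was 0.109 without and 0.000505 with the block. CNN1, calponin, behaved alike, at 4.21, 15.5 and 9.04 CPM against 19, 91.3 and 48.9 CPM, with differences of 2.14, 2.73 and 2.50 (edgeR adjusted p 0.102; 0.000179 with the block). MYL9, the regulatory myosin light chain, was at 178 to 275 CPM against 337 to 707 CPM (edgeR adjusted p 0.12; 0.0027 with the block). TPM1, tropomyosin 1, was at 614 to 885 CPM against 1100 to 2840 CPM (edgeR adjusted p 0.0737; 0.00261 with the block). SMTN, smoothelin, was at 44.4 to 64.1 CPM against 72.8 to 106 CPM and CALD1, caldesmon, at 684 to 1020 CPM against 784 to 1770 CPM, with edgeR adjusted p of 0.00622 and 0.0263 with the block. In CALD1 the ranges overlapped, and number 1 differed by 0.19 on the log2 scale.

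Some of the defining smooth muscle genes were not called in either fit. MYH11, the smooth muscle myosin heavy chain, was at 1.2, 0.516 and 1.21 CPM in pMSCV and at 1.38, 14.6 and 5.32 CPM in SRF-FOXO1 (log2 change 2.97, SE 0.89, edgeR adjusted p 0.145; 0.0574 with the block). MYOCD, myocardin, the muscle cofactor of SRF, was at 0.106 to 1.28 CPM against 0.694 to 3.33 CPM, with overlapping groups (edgeR adjusted p 0.709; 0.336 with the block). DES, the intermediate filament desmin, did not pass the filter. It was at 0.0335, 1.1 and 0 CPM in SRF-FOXO1 and at most 0.104 CPM in pMSCV. SYNPO2, TAGLN, CNN1, MYL9, TPM1, SMTN, CALD1, MYH11, MYOCD and DES are not among those the naming rule gives and were picked with their values in view. Of the 7 smooth muscle calls without the block, 0 were called without pMSCV replicate 1, 1 without pMSCV replicate 3 or SRF-FOXO1 replicate 2, and 2 without pMSCV replicate 2. Of the 20 with the block, 12 to 20 were called when 1 library was left out, the fewest without SRF-FOXO1 replicate 2.

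**Figure D3:**
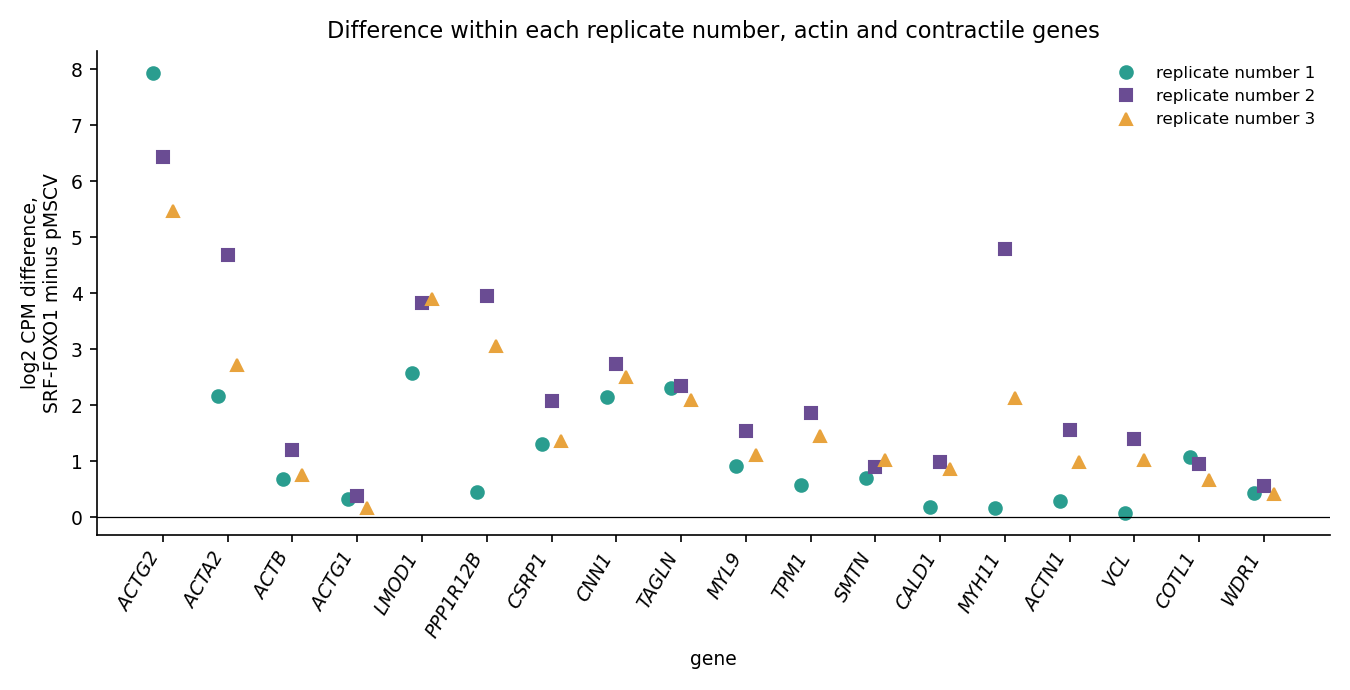
Log2 CPM difference between SRF-FOXO1 and pMSCV libraries of the same replicate number (vertical axis) for 18 actin and contractile genes, 1 symbol per number. TAGLN and CNN1 differ by similar amounts in all 3 numbers, whereas PPP1R12B, CALD1, MYH11 and VCL differ little in number 1.

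Striated muscle genes were largely silent. Of 49 listed genes only 18 passed the filter, of which 3 rose and 0 fell without the block and 5 rose with it (median log2 change 0.57). The 3 were ACTC1, ACTA1 and TNNC1, the slow troponin C, which was at 0.0693 to 0.129 CPM in pMSCV and at 0.302, 1.41 and 1.39 CPM in SRF-FOXO1 (log2 change 3.38, SE 0.75, edgeR adjusted p 0.0443; 0.00705 with the block). All 3 were at no more than 0.139 CPM in pMSCV and passed the filter only through other groups. The count therefore leans towards rises. LDB3, a Z-disc protein, was at 0.312 to 0.516 CPM against 1.95, 24.2 and 5.09 CPM (edgeR adjusted p 0.0522; 0.0012 with the block), and was highest in SRF-FOXO1 replicate 2. The myogenic regulators MYOG and MYF5, and the heavy chains MYH6 and MYH7, had 0 counts in all 6 libraries. They lie outside the naming rule. Without the block, 0 of the 3 calls passed when any 1 pMSCV library or SRF-FOXO1 replicate 2 was left out, and with it 4 or 5 of the 5 passed.

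Among 51 actin cytoskeleton and focal adhesion genes, 2 rose without the block, 19 rose and 0 fell with it, and the median log2 change was 0.44. COTL1, coactosin, an actin-binding protein, rose from 78.1, 91.1 and 97.1 CPM to 165, 157 and 147 CPM. Its libraries were tight within groups, and the log2 change was 0.90 (SE 0.13, edgeR adjusted p 0.0058; 0.000374 with the block; 0.0844 without pMSCV replicate 1). WDR1, which helps cofilin to take filaments apart, rose from 283 to 310 CPM to 369 to 404 CPM (log2 change 0.47, SE 0.10, edgeR adjusted p 0.0351; 0.00838 with the block). With scaling by total count the list held 1 call without the block. PDLIM5, a LIM adaptor, and CFL2, the muscle cofilin, were called with the block only (log2 changes 0.90 and 0.67, edgeR adjusted p 0.0695 and 0.07; 0.00512 and 0.00882 with the block). VCL, vinculin, and ACTN1, alpha actinin, were also called with the block only (edgeR adjusted p 0.0208 and 0.00836), and VCL differed by 0.08 on the log2 scale in number 1 and by 1.39 in number 2. With the block and without SRF-FOXO1 replicate 2, 5 of the 19 were called, and 9 without pMSCV replicate 3.

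Integrins link the matrix to this cytoskeleton. Of 21 tested, 0 rose and 1 fell without the block, and 4 rose and 1 fell with it. The gene that fell was ITGB8, which pairs with alpha V to activate latent TGF-beta (20.5, 22.3 and 32.7 CPM against 10.5, 10.0 and 16.1 CPM; log2 change -0.97, SE 0.19, edgeR adjusted p 0.0285; 0.00111 with the block). Its difference was steady over the numbers, from -0.97 to -0.94. ITGA5, the fibronectin receptor subunit, was at 467 to 558 CPM in pMSCV and at 649, 2040 and 1290 CPM in SRF-FOXO1 (log2 change 1.49, SE 0.34, edgeR adjusted p 0.0538; 0.00397 with the block). ITGB3 was at 9.45 to 17.4 CPM against 26.6, 96.1 and 29.9 CPM (edgeR adjusted p 0.0867; 0.00027 with the block), ITGA7 was called with the block at 0.00667, and ITGA6, outside the naming rule, at 0.00488 by edgeR. All 5 calls with the block passed whichever library was left out, while without the block that of ITGB8 was kept only without SRF-FOXO1 replicate 3.

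Caveolae, the small plasma membrane pits, were examined with a list made after the values were seen, so its count supports nothing. Of 11 tested genes 3 rose without and 5 rose with the block. CAVIN1, which coats caveolae, rose from 476, 594 and 478 CPM to 714, 1370 and 985 CPM (log2 change 1.08, SE 0.20, edgeR adjusted p 0.0214; 0.00209 with the block). CAV2, caveolin 2, rose from 58.2, 69.4 and 75.6 CPM to 111, 266 and 138 CPM (log2 change 1.45, SE 0.27, edgeR adjusted p 0.0226). EHD4, a membrane-shaping ATPase, rose from 74.4 to 111 CPM to 123 to 167 CPM (log2 change 0.79, edgeR adjusted p 0.0443). All 3 lie outside the naming rule and lost the call without the block when any pMSCV library was left out.

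Of 14 tested cofactors of SRF, 1 rose without the block, CSRP1, named above with the smooth muscle genes, and 2 rose with it. The shares called among all tested genes were 0.928% and 7.03%. The median log2 change of the cofactors was -0.02. The second was HOPX, a small homeodomain protein, with 0 counts in each pMSCV library and 0.268 to 0.47 CPM in SRF-FOXO1, at least 2.98-fold higher (edgeR adjusted p 0.164; 0.0253 with the block). ELK4, a ternary complex factor, was at 102 to 117 CPM against 80.9 to 103 CPM and was not called (edgeR adjusted p 0.447).

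Immediate early genes are the other branch of SRF targets. Of 34 tested, 1 rose without the block, and 6 rose and 0 fell with it, while the median log2 change was -0.21 without and 0.09 with the block. The gene called in both fits was ARC, an activity-regulated cytoskeletal protein, at 0.106, 0.559 and 0.45 CPM in pMSCV and 1.68, 3.64 and 2.08 CPM in SRF-FOXO1 (log2 change 2.84, SE 0.45, edgeR adjusted p 0.00858; 0.0734 without pMSCV replicate 1). IER5 was at 32.3, 54.4 and 55.8 CPM against 62.6, 76.4 and 92.7 CPM and differed by 0.94, 0.66 and 0.80 within the numbers (edgeR adjusted p 0.2; 0.000454 with the block). DUSP2, a phosphatase acting on ERK, was called with the block only (edgeR adjusted p 0.0608; 0.0256 with the block), from 0 to 0.129 CPM in pMSCV to 0.274 to 1.24 CPM in SRF-FOXO1.

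FOXO factors and known FOXO targets, listed because of the fusion partner, were called only with the block and in both directions. Of 39 tested, 0 were called without the block (8 at an unadjusted p under 0.05, 5 of them higher; 2 by the DESeq2 Wald test), and 2 rose and 3 fell with the block. Their median log2 change was -0.20 without and -0.19 with the block, below the 0.013 and 0.0089 of all tested genes. GADD45A, a growth arrest gene, was at 23.8, 27.8 and 27.5 CPM in pMSCV and at 37.4, 48.3 and 42.6 CPM in SRF-FOXO1, and KLF2, a vascular transcription factor, at 7.87 to 16 CPM against 16.6 to 25.1 CPM. These were the members called higher with the block (edgeR adjusted p 0.0111 and 0.00525; 0.0756 and 0.254 without it). CCNG2, an atypical cyclin of quiescent cells, was at 85.2 to 95.9 CPM against 46 to 72.7 CPM (edgeR adjusted p 0.122; 0.0058 with the block). FBXO32, the muscle atrophy ubiquitin ligase, was at 253, 132 and 126 CPM against 163, 48.3 and 64.4 CPM, lower by 0.65, 1.27 and 0.89 on the log2 scale (edgeR adjusted p 0.519; 0.000811 with the block). GABARAPL1, of autophagy, was the remaining member called lower with the block (edgeR adjusted p 0.0195). CDKN1A, the p21 inhibitor of the cell cycle, was at 91.5 to 117 CPM against 119 to 189 CPM and was not called (edgeR adjusted p 0.215; 0.0797 with the block). KLF2, FBXO32 and GABARAPL1 lie outside the naming rule. With the block, 3 of the 5 calls were kept without pMSCV replicate 1, pMSCV replicate 3 or SRF-FOXO1 replicate 2.

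Of 36 tested cell cycle genes 0 were called in either fit (1 at an unadjusted p under 0.05 without the block; 0 by the DESeq2 Wald test). Their median differences were 0.99 in number 1, -0.56 in number 2 and 0.70 in number 3. CDC6, a replication licensing factor, was at 10.1, 18 and 13.3 CPM in pMSCV and 27.7, 16.2 and 25.5 CPM in SRF-FOXO1 (edgeR adjusted p 0.284; 0.114 with the block). Its level was raised in SRF-FOXO1 replicates 1 and 3, and replicate 2 lay within the pMSCV range.

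Keratins are the intermediate filaments of epithelia. Of 21 genes 10 were tested, 1 rose without the block, all 10 rose with it, and their median log2 change was 2.1. KRT17 was at 0.389, 0.344 and 0.139 CPM in pMSCV and 3.79, 30.8 and 11.8 CPM in SRF-FOXO1 (log2 change 5.85, SE 1.10, edgeR adjusted p 0.0238; 0.000671 with the block). KRT14 was at 0.104 to 0.387 CPM against 0.537, 6.89 and 1.39 CPM (edgeR adjusted p 0.0526; 0.00219 with the block). KRT18, a keratin of simple epithelia that is also made by stromal cells, was at 24.3, 50.8 and 53.2 CPM against 55.9, 172 and 117 CPM (edgeR adjusted p 0.246; 0.000857 with the block). KRT80 was at 1.03, 4.99 and 2.53 CPM against 2.82, 44.6 and 19.5 CPM, and KRT81 at 0.248, 4.21 and 1.84 CPM against 4.16, 35.2 and 7.77 CPM, so that both groups overlapped while each number differed in the same direction. The other members called with the block were KRT10, KRT15, KRT7, KRT8 and KRT86. KRT7, KRT8, KRT18, KRT80, KRT81 and KRT86 lie outside the naming rule. With the block, 6 of the 10 were called without SRF-FOXO1 replicate 2. Without it, the call of KRT17 was lost without SRF-FOXO1 replicate 2 or any pMSCV library.

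Of 7 epithelial markers 3 passed the filter, and 0 without the block but 2 with it rose, CDH1 and KRT14. Both were at no more than 0.387 CPM in pMSCV and passed the filter mainly through libraries where they were higher. The count therefore leans towards rises. The other tested marker, CLDN4, was not called in either fit and was lower in SRF-FOXO1 at each number. It was at 5.28, 3.83 and 5.13 CPM in pMSCV and at 5.13, 1.92 and 4.21 CPM in SRF-FOXO1. The summed level of the 7 markers was 4.38 to 5.64 CPM in pMSCV, most of it CLDN4, and 6.44 to 10.3 CPM in SRF-FOXO1. KRT5 was at 0 in all 6 libraries and EPCAM at 0.0708 to 0.537 CPM. The part of epithelial cells in the keratin result was not tested. CDH1, the epithelial cadherin, had 1 count in pMSCV and was at 0.0671, 1.14 and 0.555 CPM in SRF-FOXO1. Its ratio was 44.9 (95% interval 7.64 to 1810, counting error only), and it was called with the block (edgeR adjusted p 0.0529; 0.0102 with the block).

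Among 16 tested cadherins, the calcium-dependent adhesion molecules, 1 rose without the block, and 3 rose and 2 fell with it. CDH3, the placental cadherin (chr16:68636189-68722616), had 0 counts in every pMSCV library and was at 4.86, 20.4 and 10.1 CPM in SRF-FOXO1, at least 91.5-fold higher (edgeR adjusted p 0.00495; 2.08e-07 with the block). It was 1 of 3 of the 12 largest rises that kept the call whichever library was left out, with a largest edgeR adjusted p of 0.0413, without pMSCV replicate 3. CDH11, a mesenchymal cadherin, was at 179 to 224 CPM against 229 to 380 CPM (edgeR adjusted p 0.0711; 0.00508 with the block). CDH2, the neural cadherin, was at 387 to 508 CPM against 287 to 324 CPM (edgeR adjusted p 0.197; 0.0348 with the block). Of the 5 cadherin calls with the block, 3 were kept without pMSCV replicate 3 or SRF-FOXO1 replicate 2.

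Collagens and other matrix genes moved in both directions. Of 37 tested collagens 1 rose, and 5 rose and 2 fell with the block (median log2 change 0.25). COL11A1, a fibrillar collagen of cartilage and of activated stroma (chr1:102876467-103108872), was at 1.52, 2.36 and 3.05 CPM in pMSCV and at 33.9, 139 and 85.7 CPM in SRF-FOXO1. The log2 change was 5.33 (SE 0.53, edgeR adjusted p 0.000594; 1.5e-05 with the block), and it remained called whichever library was left out. COL5A3 was at 19.5, 18 and 65.8 CPM against 66.5, 223 and 188 CPM, and COL18A1, the source of endostatin, at 44.7 to 50.8 CPM against 55.2, 155 and 84 CPM (edgeR adjusted p 0.172 and 0.145; 0.0259 and 0.0244 with the block). COL10A1, a collagen of hypertrophic cartilage, and COL24A1 were lower with the block (edgeR adjusted p 0.0486 and 0.00661) and lie outside the naming rule. Of the 7 collagen calls with the block, 2 were kept without pMSCV replicate 2 or SRF-FOXO1 replicate 2, 3 without pMSCV replicate 3 and 4 without pMSCV replicate 1, and that of COL10A1 was lost in 5 of the 6 omissions. Of 55 matrix and protease genes 2 rose, and 4 rose and 4 fell with the block. THBS1, thrombospondin 1, rose from 416, 695 and 474 CPM to 1210, 4730 and 1920 CPM (log2 change 2.43, SE 0.44, edgeR adjusted p 0.0212). TIMP3, an inhibitor of metalloproteinases, rose from 715, 1170 and 668 CPM to 1840, 2360 and 2310 CPM (log2 change 1.44, SE 0.29, edgeR adjusted p 0.0298).

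Some metalloproteinases, which TIMPs inhibit, were lower. MMP16 was at 158 to 184 CPM in pMSCV and 59.4 to 121 CPM in SRF-FOXO1 (edgeR adjusted p 0.151; 0.0028 with the block). MMP14, an activator of MMP2, was at 4210 to 6480 CPM against 4500, 1700 and 2260 CPM, and MMP2 at 3130 to 4030 CPM against 2280 to 2770 CPM. Both were called lower with the block only (edgeR adjusted p 0.0143 and 0.0187) and lie outside the naming rule. Without pMSCV replicate 1, the calls of THBS1 and TIMP3 were lost (edgeR adjusted p 0.152 and 0.205). Of the 8 matrix and protease calls with the block, 3 were kept without pMSCV replicate 3 or SRF-FOXO1 replicate 2 and 5 without pMSCV replicate 2. Those of MMP2 and MMP14 were lost in 4 and 3 of the 6 omissions.

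Among genes of the insulin-like growth factor system, 1 of 7 tested rose, and 3 with the block. IGFBP5, a secreted binding protein, was at 7.12, 11.2 and 5.16 CPM in pMSCV and 85.9, 39.5 and 163 CPM in SRF-FOXO1 (log2 change 3.68, SE 0.59, edgeR adjusted p 0.0124; 0.105 without pMSCV replicate 1). Unlike the muscle genes it was lowest in SRF-FOXO1 replicate 2. IGFBP3 was at 12.1 to 21.2 CPM against 20.5, 70.2 and 85.6 CPM and IGFBP7 at 164, 276 and 173 CPM against 264, 468 and 312 CPM (edgeR adjusted p 0.08 and 0.249; 0.0106 and 0.00155 with the block).

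Several secreted growth factors and receptors rose. PDGFB, a mitogen of mesenchymal cells, had 1 count in pMSCV and was at 5.64, 22.8 and 10.4 CPM in SRF-FOXO1, a ratio of 1020 (95% interval 182 to 40300, counting error only; edgeR adjusted p 0.00495). FGF1 rose from 7.26, 8.94 and 6.82 CPM to 28.4, 65.8 and 34.7 CPM (log2 change 2.59, SE 0.37, edgeR adjusted p 0.00625). HBEGF, a ligand of the EGF receptor, rose from 8.85 to 12.6 CPM to 22.2 to 36.4 CPM, and EDN1, the vasoconstrictor endothelin 1, from 1.32 to 3.4 CPM to 6.34 to 14.1 CPM (edgeR adjusted p 0.0187 and 0.0226). AGTR1, the angiotensin II receptor of smooth muscle, rose from 21.8, 22.5 and 25.7 CPM to 77.8, 61.3 and 94.3 CPM. Its spread was small, with a log2 change of 1.81 (SE 0.24, edgeR adjusted p 0.00495; 2.45e-06 with the block; 0.0623 without pMSCV replicate 1). HTR1B, a serotonin receptor, rose from 0.248, 0.688 and 1.32 CPM to 5.44, 20.9 and 12.6 CPM (log2 change 4.21, SE 0.71, edgeR adjusted p 0.0132). PDGFRA, a receptor of the PDGF family and a stromal marker, was at 95.1, 65.8 and 107 CPM against 49.1, 23.4 and 37.4 CPM and was called lower with the block only (edgeR adjusted p 0.0814; 0.00882 with the block). Except for PDGFB these genes are not among those the naming rule gives and were picked with their values in view. The 6 calls made without the block were all lost without pMSCV replicate 1 (largest edgeR adjusted p 0.16, for EDN1).

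Of 40 TGF-beta, BMP and YAP-TEAD targets, 2 rose without the block, and 4 rose and 1 fell with it (median log2 change 0.041). F3, tissue factor, which starts blood coagulation, rose from 37.0, 51.2 and 92.1 CPM to 324, 659 and 540 CPM (log2 change 3.18, SE 0.50, edgeR adjusted p 0.0115; 4.08e-06 with the block). BAMBI, a decoy receptor of the TGF-beta family, rose from 2.44, 2.49 and 0.693 CPM to 5.54, 9.43 and 3.98 CPM (log2 change 1.85, SE 0.41, edgeR adjusted p 0.0421). ANKRD1, a cardiac repeat protein induced by stretch, was at 0.637, 10.3 and 3.12 CPM against 24.3, 198 and 51.8 CPM, and differed by 5.08, 4.44 and 4.09 within the numbers (edgeR adjusted p 0.0915; 0.000915 with the block). CCN2, a matricellular YAP target, was at 570, 264 and 317 CPM against 785, 780 and 643 CPM (edgeR adjusted p 0.308; 0.0436 with the block), and TGFBR2, the type II receptor, was the member called lower with the block (edgeR adjusted p 0.0485). PLAU, urokinase, which activates plasminogen, rose from 270, 434 and 277 CPM to 853, 2570 and 1090 CPM (log2 change 2.32, SE 0.43, edgeR adjusted p 0.0214). CCN2 and PLAU lie outside the naming rule. Without pMSCV replicate 1 the calls of F3 and PLAU were lost (edgeR adjusted p 0.105 and 0.16), and that of BAMBI without SRF-FOXO1 replicate 2 (edgeR adjusted p 0.227). Of the 5 list calls with the block, 3 were kept without pMSCV replicate 1 or 3 or without SRF-FOXO1 replicate 2 or 3.

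Genes of amino acid supply were noticed after the values were seen and then listed, so their count is a description. Of 39 tested genes of amino acid synthesis, transport and tRNA charging, 5 rose and 0 fell without the block, and 22 rose and 0 fell with it (median log2 change 0.43). SLC7A5, the large neutral amino acid transporter, rose from 10.8, 14.5 and 12.2 CPM to 35.4, 146 and 45.3 CPM (log2 change 2.72, SE 0.48, edgeR adjusted p 0.0187; 0.00217 with the block). PSAT1, of serine synthesis, rose from 7.79 to 15.2 CPM to 27.0 to 61.2 CPM (edgeR adjusted p 0.0393). CHAC1, a glutathione-degrading enzyme of the stress response, rose from 1.21 to 1.38 CPM to 3.05, 12.6 and 3.56 CPM (edgeR adjusted p 0.0451). GARS1, the glycyl-tRNA synthetase, rose from 114 to 129 CPM to 162 to 231 CPM, and PYCR3, of proline synthesis, from 10.7 to 11.7 CPM to 15.0 to 18.4 CPM (edgeR adjusted p 0.041 and 0.0228). Except for PYCR3 these rose most in SRF-FOXO1 replicate 2. All 5 lie outside the naming rule. Without the block, 0 of the 5 list calls were kept without any 1 of the pMSCV libraries, and with the block 10 to 20 of the 22 were kept when 1 library was left out.

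Lineage markers of the cell types that mesenchymal stem cells can form were mixed. ALPL, alkaline phosphatase, an early marker of bone formation and of stromal precursors, was at 0.602, 0.516 and 1.28 CPM in pMSCV and 40.8, 26.0 and 28.4 CPM in SRF-FOXO1 (log2 change 5.36, SE 0.76, edgeR adjusted p 0.00625; 0.000616 with the block; 0.0876 without pMSCV replicate 1). RUNX2, the regulator of bone cells, was at 69.6 to 102 CPM against 44.2 to 71.1 CPM and was called lower with the block (edgeR adjusted p 0.373; 0.00575 with the block). BGLAP, osteocalcin, was at no more than 0.157 CPM and SOST at 0. PPARG, the regulator of fat cells, rose from 0.106 to 0.346 CPM to 0.57, 3.17 and 1.16 CPM (log2 change 3.14, SE 0.71, edgeR adjusted p 0.0461), while ADIPOQ and LEP were at 0 in all 6 libraries. PPARG was the only call in either fit among 3 tested fat markers, whose median log2 change was -0.20. Of 4 tested bone markers ALPL alone rose, and their median was -0.44. Of 5 tested cartilage markers, 0 were called without the block, and 2 rose and 1 fell with it (median 0.61). With the block, 0 of the 3 cartilage calls were kept without SRF-FOXO1 replicate 2. Endothelial markers summed to 74.2 to 94.6 CPM in pMSCV and 127 to 351 CPM in SRF-FOXO1. The marker with the highest level in each library was TEK, the angiopoietin receptor (60.4 to 82.6 CPM against 111, 344 and 257 CPM; edgeR adjusted p 0.102; 0.00245 with the block). PECAM1 was at 8.9 to 19.8 CPM against 4.31 to 12.5 CPM. Of the 13 tested stem cell surface markers, 2 rose and 0 fell without the block, and 3 rose and 1 fell with it (median log2 change -0.033). The marker that fell was PDGFRA, whose values stand above. THY1 rose from 54.4 to 59.0 CPM to 106 to 161 CPM and CD9 from 11.7 to 18.4 CPM to 26.2 to 43.7 CPM (edgeR adjusted p 0.041 and 0.0374). Of the 4 marker calls with the block, 1 was kept without SRF-FOXO1 replicate 2. The part of other cell types in these results was not tested. RUNX2, PPARG, TEK, THY1 and CD9 lie outside the naming rule.

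Several of the largest rises belonged to genes in none of the lists. CMKLR1, the receptor of chemerin (chr12:108288044-108339341), was at 0.177, 0.688 and 0.658 CPM in pMSCV and 41.1, 122 and 80.7 CPM in SRF-FOXO1. The log2 differences within the numbers were 7.32, 7.48 and 6.84, the log2 change was 7.43 (SE 0.71, edgeR adjusted p 0.000594; 1.32e-09 with the block), and the call held whichever library was left out. NRXN3, a neurexin of synapses, was at 0, 0.258 and 0.139 CPM against 7.78, 103 and 20.5 CPM (log2 change 8.54, SE 1.29, edgeR adjusted p 0.00858). RPE65, the retinoid isomerase of the eye, had 0 counts in pMSCV and was at 1.11, 17.5 and 6.2 CPM in SRF-FOXO1, at least 64.0-fold higher (edgeR adjusted p 0.0192). TSPAN2, a tetraspanin, was at 0.0708 to 0.559 CPM against 1.41, 9.59 and 5.97 CPM (log2 change 4.70, SE 0.90, edgeR adjusted p 0.0243). With the block, all 12 of the largest rises were called whichever library was left out. Without it, 3 were called without pMSCV replicate 1, 5 without pMSCV replicate 3, and 8 without pMSCV replicate 2 or SRF-FOXO1 replicate 2.

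Of the 10 genes called lower without the block, 8 met the naming rule. PLXDC2, a transmembrane receptor (chr10:19816239-20289856), fell from 101, 65.4 and 91.8 CPM to 32.9, 16.1 and 33.9 CPM (log2 change -1.58, SE 0.34, edgeR adjusted p 0.0421; 0.00161 with the block). SALL2, a zinc finger factor, fell from 11.8, 11.2 and 11.4 CPM to 5.94, 3.6 and 5.55 CPM (log2 change -1.12, SE 0.25, edgeR adjusted p 0.0457). The naming rule asked for separate groups, so the separation of both genes is no result. The lowest SALL2 level was in replicate 2. FLRT2, an adhesion protein that binds FGF receptors, fell from 74.9 to 82.1 CPM to 32.2 to 50.5 CPM (log2 change -0.85, SE 0.16, edgeR adjusted p 0.0226). RESF1, which acts in silencing of endogenous retroviruses, fell from 63.1 to 90.3 CPM to 35.2 to 46.4 CPM (log2 change -0.83, edgeR adjusted p 0.041). The other named genes that fell were C15orf62, the ubiquitin ligase gene MARCHF9 and ITGB8, with log2 changes of -1.02, -0.45 and -0.97. Without the block, 0 of these 8 calls were kept without any 1 of the pMSCV libraries or SRF-FOXO1 replicate 2. With it, 6 to 8 were kept.

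Other genes were called only with the block. FOXS1, a forkhead factor of pericytes, was at 0.177, 0.946 and 0.623 CPM in pMSCV and 2.75, 18.9 and 11 CPM in SRF-FOXO1, with differences of 3.46, 4.39 and 4.04 within the numbers (edgeR adjusted p 0.147; 5.98e-05 with the block). ITIH3, a serum matrix-binding protein, had 1 count in pMSCV and 0.403, 1.64 and 0.463 CPM in SRF-FOXO1, a ratio of 66.8 (95% interval 11.6 to 2680; edgeR adjusted p 9.09e-05 with the block). TSPAN15 and RGS9, a regulator of G protein signalling, were also called higher (edgeR adjusted p 0.000362 and 0.000844 with the block). On the lower side, EPHA7, an ephrin receptor, was at 11.6, 11.6 and 18.7 CPM against 2.75, 1.14 and 4.16 CPM (log2 change -2.43 and edgeR adjusted p 0.00102 with the block). PTGIS, the prostacyclin synthase, was at 17.1 to 45.5 CPM against 5.64 to 10.9 CPM, and PAPPA, a protease that cleaves IGF-binding proteins, at 26.0 to 71.1 CPM against 12.3 to 14.6 CPM (edgeR adjusted p 0.00645 and 0.039 with the block). The lipid transporters ABCA1 and ABCA8 and the membrane protein gene FER1L6 were likewise lower (edgeR adjusted p 0.03, 0.0265 and 0.0325 with the block). The 6 higher genes kept the call with the block whichever library was left out. Of the 6 lower ones 2 did, EPHA7 and PTGIS.

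Of 35 ion channel and calcium handling genes of muscle, 1 rose without the block, and 4 rose and 2 fell with it (median log2 change -0.082). JPH2, junctophilin 2, which ties the sarcoplasmic reticulum to the plasma membrane, rose from 1.73, 10.4 and 4.16 CPM to 17.9, 106 and 52.1 CPM (log2 change 3.58, SE 0.75, edgeR adjusted p 0.041; 0.000139 with the block; 0.22 without pMSCV replicate 1). Its differences within the numbers, 3.30, 3.52 and 3.69, were close to each other although the vector libraries spread widely. OXTR, the oxytocin receptor of the uterus, was at 2.51 to 5.5 CPM against 4.66, 29.2 and 12.6 CPM, and PLN, phospholamban, at 0.283 to 0.344 CPM against 1.07 to 1.61 CPM (edgeR adjusted p 0.0532 and 0.056; 0.0201 and 0.0126 with the block). The potassium channel subunits KCNMA1 and ABCC9 were lower with the block (edgeR adjusted p 0.026 and 0.0159) and lie outside the naming rule. Of the 6 calls with the block, 1 was kept without SRF-FOXO1 replicate 2 and 2 without pMSCV replicate 3, and that of KCNMA1 was lost in 5 of the 6 omissions.

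Interferon and inflammatory genes gave no calls. Of 45 interferon and MHC genes 0 were called in either fit (1 at an unadjusted p under 0.05 without the block; 1 by the DESeq2 Wald test), with a median log2 change of -0.044. CXCL11, an interferon-induced chemokine, was at 1.56, 0.301 and 2.98 CPM against 7.52, 10.2 and 11.6 CPM (edgeR adjusted p 0.153; 0.0843 with the block). Of 40 inflammatory and NF-kB target genes 0 were called in either fit (1 at an unadjusted p under 0.05; 0 by the DESeq2 Wald test), with a median of -0.37. C3, the central complement protein, was at 86.8, 209 and 319 CPM against 47.3, 33.2 and 39.2 CPM (log2 change -2.28, SE 0.83, edgeR adjusted p 0.217; 0.0894 with the block).

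**Figure D4:**
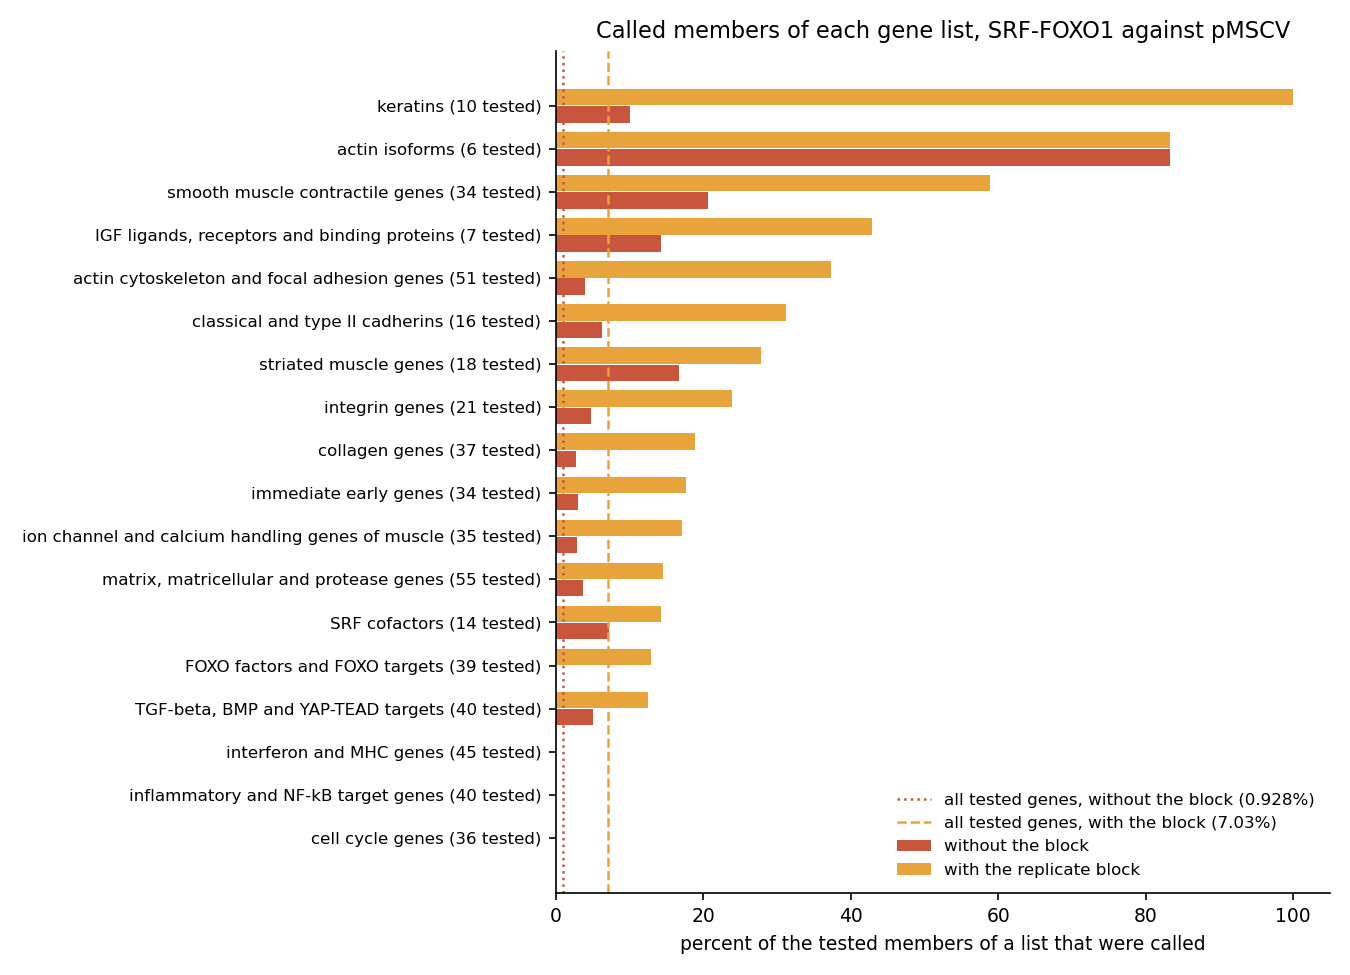
Percent of the tested members of each of 18 gene lists that were called (horizontal axis), without the block in red and with it in orange. Vertical lines give the share among all tested genes, 0.928% and 7.03%; the actin list reaches 5 of 6 in both fits, and the interferon, inflammatory and cell cycle lists have 0 calls.

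Where SRF-FOXO1 differs from raised SRF alone was asked by comparing its libraries with those labelled SRF. The fit without the block is taken first here, because the pair of replicates 1 correlated weakly (0.0875). Of 18544 genes 253 were called (1.36%), 213 higher and 40 lower, and with the block the share was 7.23%. Of the 97 genes that met the naming rule, 24 were called higher and 5 lower, a count of 29 in all and 63 with the block, which without the block was 6 when SRF replicate 2 was left out and 45 when SRF replicate 3 was. SRF itself was lower than in the SRF libraries by a log2 change of -2.32 (SE 0.24, edgeR adjusted p 0.00056; 6.43e-05 with the block), whereas ACTG2 was higher by 5.37 (SE 0.85, edgeR adjusted p 0.00907; 0.000295 with the block), COL11A1 by 4.58 and CMKLR1 by 6.91. ACTB was higher by 0.89 (SE 0.17, edgeR adjusted p 0.0182; 0.00565 with the block). ACTA2 stood at 35.9 to 61.3 CPM in the SRF libraries, above pMSCV, and was called against SRF with the block only (edgeR adjusted p 0.0959; 0.0362 with the block). ALPL, at 1.84 to 16.2 CPM there, was likewise called with the block only (edgeR adjusted p 0.145; 0.0314 with the block). LMOD1, at 20.4 to 24.1 CPM, was not called in either fit (edgeR adjusted p 0.448; 0.182 with the block). The comparisons with pMSCV and with SRF share the SRF-FOXO1 libraries and are not independent.

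A direct test of SRF-FOXO1 against the mean of the other 3 fusions called 72 genes (0.388%), 68 higher and 4 lower (0.0216%), and 294 with the block (1.59%), of which 49 were lower (0.264%). Of the 97 genes that met the naming rule 15 were called, 14 higher and 1 lower, and with the block 37, 31 higher and 6 lower. Without SRF-FOXO1 replicate 2, and without the block, 0 of the 97 were called, and without replicate 1 26 were. F3 was higher by a log2 change of 2.31 (SE 0.35, edgeR adjusted p 0.011; 4.63e-06 with the block), and its 324 to 659 CPM lay above the 48.6 to 242 CPM of the other fusions. COTL1 was higher by 0.74 (SE 0.10, edgeR adjusted p 0.00594; 0.000441 with the block), at 147 to 165 CPM against 85.6 to 112 CPM. ALPL was higher by 2.98 (SE 0.46, edgeR adjusted p 0.011; 0.00155 with the block), at 26.0 to 40.8 CPM against 0.412 to 11.6 CPM. For these 3 genes the SRF-FOXO1 libraries did not overlap with any of the 9 others. PPARG, HTR1B and FGF1, outside the naming rule, also did not overlap and were higher by 3.48, 2.40 and 1.72 (edgeR adjusted p 0.00884, 0.0299 and 0.011). RGS9 and KRT14 were higher by 2.89 and 4.24 (edgeR adjusted p 0.0168 and 0.0144). RGS9 did not overlap either. KRT14, at 0.537, 6.89 and 1.39 CPM, overlapped with the other fusions, which reached 0.799 CPM, and was at no more than 0.0343 CPM in SRF-PDGFRB. FLRT2 was lower by a log2 change of -0.68 (SE 0.14, edgeR adjusted p 0.0466; 0.0202 with the block). Its 32.2 to 50.5 CPM overlapped with the 46.1 to 87.8 CPM of the other fusions.

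A mean over fusions can hide their differences. ACTA1 was called against that mean (log2 change 5.13, SE 0.90, edgeR adjusted p 0.024), yet its 2.85, 110 and 13.3 CPM in SRF-FOXO1 stood beside 8.13, 114 and 19.8 CPM in SRF-RELA and no more than 0.556 CPM in SRF-ICA1L. COL11A1 was higher by 2.37 (SE 0.32, edgeR adjusted p 0.00812), and the SRF-PDGFRB libraries, at 2.33 to 4.39 CPM, were the lowest of the other fusions. In SRF-FOXO1 it was at 33.9, 139 and 85.7 CPM. Replicate 1 thus lay below each SRF-RELA library, of which the lowest was at 35.6 CPM, and within the 23.2 to 44.6 CPM of SRF-ICA1L. IGFBP5 and THBS1 were not called against the other fusions (log2 changes 0.16 and 0.65, edgeR adjusted p 0.895 and 0.422). Genes called only with the block in this contrast included ACTG2, ACTA2, ACTB and CDH3 (edgeR adjusted p 0.00563, 0.0334, 0.0362 and 0.000985 with the block). The actin genes and CDH3 were higher in SRF-FOXO1 than that mean, which is taken on the log scale. For CDH3 the mean is pulled down by the SRF-PDGFRB libraries. CDH3, at no more than 20.4 CPM in SRF-FOXO1, was still lower there than in SRF-ICA1L and SRF-RELA at each number. It was at 16.5, 38.1 and 30.6 CPM in SRF-ICA1L and at 17.0, 50.1 and 21.5 CPM in SRF-RELA. In SRF-PDGFRB it was at no more than 0.0348 CPM.

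**Figure D5:**
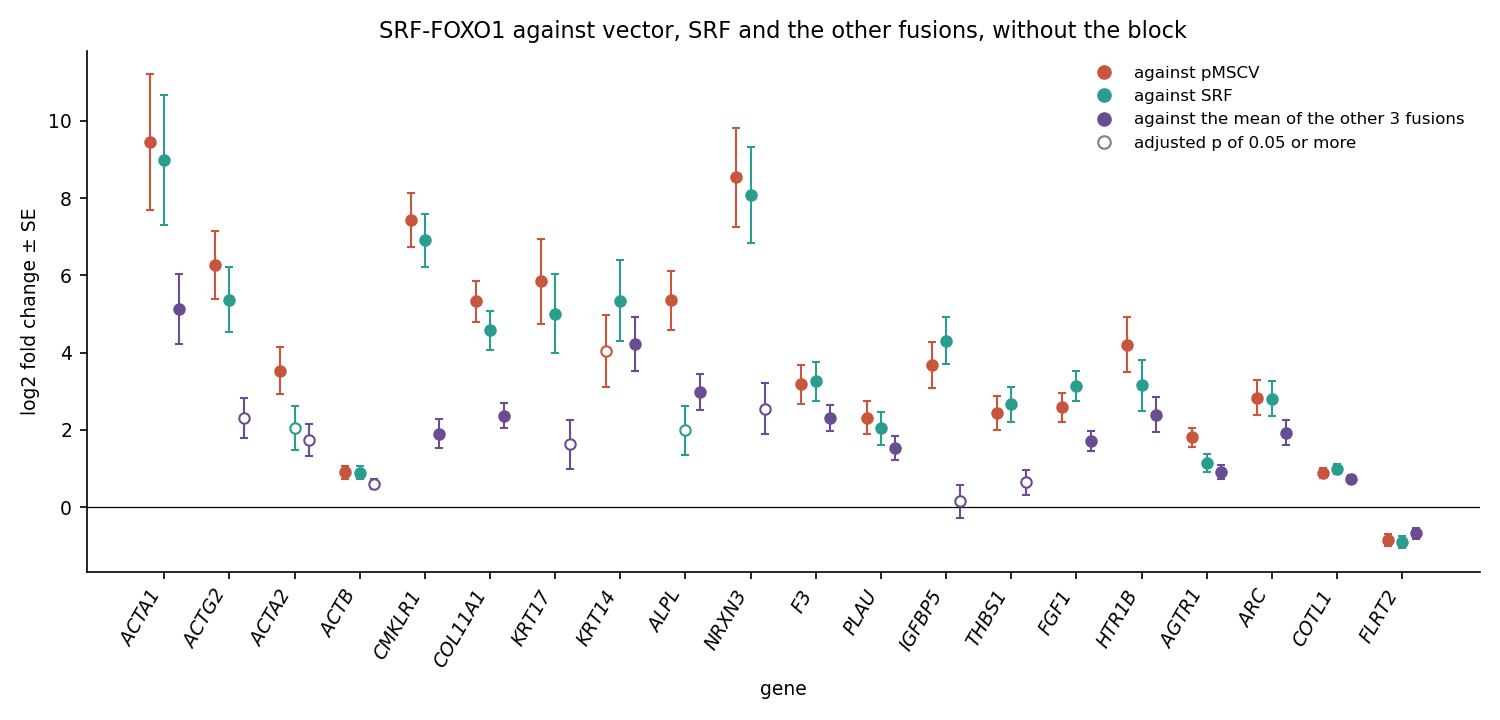
Log2 fold change with its SE (vertical axis) of SRF-FOXO1 against pMSCV, against SRF and against the mean of the other 3 fusions for 20 genes, without the block; filled symbols have an edgeR adjusted p under 0.05. F3, COTL1 and ARC are above 0 and filled in all 3 contrasts, whereas IGFBP5 and THBS1 are filled against pMSCV and SRF only.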

How the data were processed

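RNA of 18 libraries was compared as read counts per Ensembl gene, and the authors deposited 1 table of raw counts per the file headers. Per the submitters' processing notes, FastQC 0.11.8, Trimmomatic 0.39, HISAT2 2.12.1 and featureCounts of Subread 2.0.3 were used with the build GRCh38. The annotation release is not given in the sources used here. The labels' protocols name the TruSeq Stranded mRNA kit.

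Of 61487 identifiers, 18544 passed filterByExpr with a minimum count of 10 and were tested with edgeR 4.0.16 in R 4.3.3 (TMM scaling, robust quasi-likelihood F test, two-sided, Benjamini-Hochberg adjustment over all tested genes, called under 0.05). A gene near 0 in pMSCV passed the filter only through other groups, so counts of list members that rose lean upward. One coefficient per group was fitted to all 18 libraries (12 residual degrees of freedom). CPM is counts over the library total. SE is the absolute log2 fold change over the square root of F. For a gene at 0 the floor was 3 counts. The fits were tested on simulated data.

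Deviations of same-numbered SRF-FOXO1 and pMSCV libraries from their group means correlated at 0.259, 0.245 and 0.239, and with the other fusions at 0.343 to 0.545, so replicate numbers were taken as pairing from the values, not from the labels. For different numbers the range was -0.239 to 0.00215. The fit with the block had 10 degrees of freedom.

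The members and gene lists were chosen with earlier results of these data known. Named by rule were SRF and FOXO1; the 12 higher and up to 10 lower called genes with the largest fold change among genes whose mean log2 CPM reached 1 and whose groups were separate; 6 each way called only with the block; and up to 4 genes per list with the smallest p. Alternatives were DESeq2 size factors, total-count scaling, the DESeq2 1.42.0 Wald test, other filters, a further limit of 1 on the log2 change, only the 2 groups, the block, and leaving out each library. Some of the genes and lists so chosen are not reported here.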

Additional observations from a re-analysis of the deposited data

How the results depend on the processing

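Against 172 called genes, the DESeq2 Wald test called 536, a minimum of 10 counts in each library 84, a fit of only the 2 groups 5, the replicate block 1304 and the block with only the 2 groups 318. Leaving out 1 library gave 3 to 435, and 428 to 1341 with the block. Against 24 called list members the DESeq2 Wald test gave 64, a fit of only the 2 groups 0, the replicate block 103 and the block with only the 2 groups 56. Leaving out 1 library gave 2 to 68, and 55 to 135 with the block.

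With the DESeq2 Wald test, 16 smooth muscle, 5 striated muscle, 13 actin cytoskeleton, 2 FOXO and 3 keratin genes were called. With no filter the counts were 2 actin isoforms, 3 smooth muscle, 1 striated muscle, 1 FOXO and 0 keratin genes, and with at least 10 counts in each library 3 actin isoforms, 0 striated muscle and 0 keratin genes. Scaling by total count left 1 actin cytoskeleton gene and shifted the median of all genes by -0.0762. With only the 2 groups, 0 actin isoforms, smooth muscle, striated muscle, actin cytoskeleton or keratin genes were called. With the replicate block, 20 smooth muscle, 5 striated muscle, 19 actin cytoskeleton, 5 FOXO and 10 keratin genes were called, and with the block and only the 2 groups 12 smooth muscle, 4 actin cytoskeleton, 3 FOXO and 6 keratin genes.

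With 1 library left out the counts were 0 to 5 actin isoforms, 0 to 16 smooth muscle, 0 to 6 striated muscle, 0 to 17 actin cytoskeleton, 0 to 2 FOXO and 0 to 2 keratin genes. With the block they were 12 to 23 smooth muscle, 4 to 7 striated muscle, 5 to 25 actin cytoskeleton, 3 to 7 FOXO and 6 to 10 keratin genes. The log2 fold change of SRF was 1.49 to 1.79 and that of FOXO1 -0.658 to 0.0141, the latter reversed without pMSCV replicate 1. Of the 97 genes that met the naming rule, 29 differed from SRF, 63 with the replicate block and 6 to 45 with 1 library left out. From the other fusions 15 differed, 37 with the replicate block and 0 to 26 with 1 library left out. These omissions in the SRF and fusion contrasts were chosen after seeing the data.

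Of 162 named genes, 60 lost the call with only the 2 groups, and 74 gained it and 0 lost it with the replicate block. The causes were not tested. Groups of 3 libraries limit the precision, and genes near 0 counts rest on few reads.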

Other observations

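Genes of further functions were among the 162 called higher in SRF-FOXO1 without the block. They were chosen after their values were seen and belong to no list. VASP, which lengthens actin filaments, rose from 62.9 to 86.0 CPM in pMSCV to 106 to 136 CPM in SRF-FOXO1, and TUBB6, a beta tubulin, from 86.5 to 140 CPM to 209 to 275 CPM (edgeR adjusted p 0.0421 and 0.0214). SHROOM3, an actin-binding protein of cell shape, rose from 9.56 to 11.4 CPM to 23.5, 118 and 55.9 CPM, with replicate 2 highest (log2 change 2.77, SE 0.52, edgeR adjusted p 0.0228). TENM2, a teneurin adhesion molecule, rose from 5.52, 14.5 and 12.2 CPM to 26.6, 218 and 108 CPM (log2 change 3.58, SE 0.72, edgeR adjusted p 0.0353).

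CD70, a ligand of the TNF family, rose from 0.673, 0.43 and 0.519 CPM to 4.63, 9.87 and 5.6 CPM (log2 change 3.71, SE 0.58, edgeR adjusted p 0.00858), and TNFSF9, of the same family, from 2.73, 3.61 and 1.49 CPM to 5.74, 14.6 and 10.3 CPM (log2 change 2.07, SE 0.37, edgeR adjusted p 0.0187). The stress-induced kinase gene PLK2 and the transcription factor gene KLF5 also rose, by 1.48 and 1.12 on the log2 scale (edgeR adjusted p of 0.0214 and 0.0402). The groups of each of these 8 genes did not overlap. By TMM-scaled CPM the groups were separate for 1934 higher and 1619 lower genes of the 18544 tested. All 8 were called with the block too, and each lost its call without the block when pMSCV replicate 1 was left out, with edgeR adjusted p of 0.0844 for CD70 to 0.265 for VASP.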
